A study of Homo sapiens with 12 samples.

Results

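The imprinted microRNA cluster at 14q32 was represented by 38 mature strands among the 952 microRNAs that had a row in either of 2 deposited tables. Members were chosen by name: every strand whose microRNA number is on a fixed list of 49 numbers from this locus, on either arm of its hairpin. Of these numbers 30 had a row. The table for sgCYRANO against sgNT held 24 of the strands among 837 microRNAs, the table for ZSWIM8 KO against WT held 37 among 868, and 23 strands were in both.

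The samples were 12 small-RNA libraries of K562, a human erythroleukaemia cell line, in 4 groups of 3 that the depositors describe as biological triplicates. The sgNT cells carried a non-targeting guide RNA and the sgCYRANO cells a guide against the long non-coding RNA CYRANO. The ZSWIM8 KO cells, with the genotype ZSWIM8-/-, lacked ZSWIM8, a substrate receptor of a ubiquitin ligase, and were set against WT cells. Both of these groups are labelled as having received no guide, and the labels do not say whether a line was 1 clone. The series concerns target-directed microRNA decay, in which an extensively paired target RNA brings about loss of the microRNA bound to it through ZSWIM8.

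The 14q32 cluster belongs to the DLK1-DIO3 imprinted domain, in which the microRNAs are made from the maternally inherited chromosome as parts of long non-coding transcripts. It is among the largest microRNA clusters of placental mammals and is known for expression in placenta, embryo and brain. Its members include miR-127 and miR-136, which lie antisense to the retrotransposon-derived gene RTL1 and are known to cleave its messenger RNA, and miR-134, known for limiting dendritic spine size in neurons.

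All 38 strands matched the RefSeq microRNA table (GRCh38.p14). They came from 31 loci on the + strand of chromosome 14, between positions 100869060 and 101066801, a span of 197.741 kb. For 28 loci the position is that of the hairpin, and for 3 (MIR370, MIR381 and MIR432) that of the mature strand. An upstream group ran from MIR493 to MIR370, with 5 loci (MIR431, MIR433, MIR127, MIR432 and MIR136) antisense to RTL1 and all of its 8 loci within the non-coding gene AL117190.1. The downstream array began 153.006 kb from MIR493 with MIR379. Of its loci 9 lay within MEG8, 5 within MIR381HG, 4 within MEG9 and 5 in no longer gene of the annotation. The authors' build was hg19, so these positions place the loci and were not used to join any data.

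The strands with the highest levels, or with the lowest p-values, are shown first because the results below turn on them. Capitals mark the seed, bases 2 to 8 from the 5′ end, which sets most target pairing.
miR-127-3p: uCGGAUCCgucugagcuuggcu
miR-493-5p: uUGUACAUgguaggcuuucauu
miR-493-3p: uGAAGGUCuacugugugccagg
miR-381-3p: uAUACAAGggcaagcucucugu
miR-370-3p: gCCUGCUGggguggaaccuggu
miR-543: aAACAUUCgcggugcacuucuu
miR-495-3p: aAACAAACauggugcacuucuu
miR-433-3p: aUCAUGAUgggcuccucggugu

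The seeds of these 8 strands all differ. miR-543 and miR-495-3p, from loci next to each other in the array, share their last 12 bases (positions 11 to 22) and differ in the seed. Over all 703 pairs of members, 7 shared a run of 10 or more bases. The strands of 2 pairs shared a seed, and these are shown because strands of 1 seed can pair with the same target sites.
miR-379-3p: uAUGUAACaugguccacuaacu
miR-411-3p: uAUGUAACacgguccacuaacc
miR-485-3p: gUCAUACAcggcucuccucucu
miR-539-3p: aUCAUACAaggacaauuucuuu

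The 38 strands thus held 36 seeds. Outside the locus, miR-329-3p shared its seed with miR-362-3p, miR-134-5p with miR-3118 and miR-655-3p with miR-374c-5p. miR-329-3p is made by 2 hairpins, so its value is a sum over both. Of the members with an arm in their name 26 were 3p and 11 were 5p strands, a 3p share of 70.3% against 53.8% of the other measured microRNAs with a named arm. The median GC content was 45.5% among members and 50% among the other measured microRNAs with a RefSeq sequence. The sources used here do not state how reads shared by near-identical strands were assigned.

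The values are group means in CPM, counts per 1000000 reads, recovered from the deposited columns, and whole reads per library where these could be worked out. The headers give no direction, and sgCYRANO and ZSWIM8 KO were taken as the numerators; if the authors divided the other way, each pair of groups swaps. Libraries held 1550000 to 2300000 reads (sgNT), 1670000 to 1850000 (sgCYRANO), 861000 to 1850000 (WT) and 2090000 to 2490000 (ZSWIM8 KO). The libraries cannot be tied to replicate numbers and are named by size: largest, middle and smallest. The largest and the middle ZSWIM8 KO library had nearly equal totals, so their reads are given together. With 3 counts over a group as the limit, a mean of 0 allows up to 0.546 CPM for sgNT, 0.567 for sgCYRANO, 0.788 for WT and 0.425 for ZSWIM8 KO. Intervals and limits on reads cover counting error only.

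The erythroid markers miR-451a (574 to 956 CPM over the 4 groups), miR-486-5p (11701 to 14449 CPM) and miR-144-3p were present. Of the 18 markers listed for other cell types, 10 (among them miR-124-3p, miR-206 and miR-150-5p) had no row in either table. The others summed to 892 CPM in sgNT, 1082 CPM in sgCYRANO, 686 CPM in WT and, with ZSWIM8 lost, 1517 CPM. Without miR-9-5p these sums were 96.6, 96.9, 127.6 and 121.5 CPM. The neuronal marker miR-9-5p had 558 CPM in WT cells against 1396 CPM with ZSWIM8 lost. Its log2 fold change in the authors' deposited table was 1.32 ± 0.54, with an adjusted p of 0.106 (edgeR). The epithelial marker miR-200c-3p had 68.8 to 94.6 CPM over the 4 groups. Their part in the 14q32 results was not tested.

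The whole cluster made up a very small share of the reads. Its strands summed to 83.9 CPM in sgNT and 79.2 CPM in sgCYRANO, to 125 CPM in WT and to 209 CPM in ZSWIM8 KO, or 0.00839%, 0.00792%, 0.0125% and 0.0209% of all microRNA CPM. The median strand had a group mean of 1.01 CPM in sgNT and 1.14 CPM in WT. Of the 37 strands in the ZSWIM8 table, 14 had a mean under 1 CPM and 6 reached 10 CPM. Of the 24 in the sgCYRANO table, 12 were under 1 CPM and 3 reached 10 CPM.

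The order of levels was led by the same few strands in all groups. miR-127-3p, the strand known for cleaving RTL1 mRNA, had 16.5 CPM in sgNT and 16.3 CPM in sgCYRANO, 21.6 CPM in WT and, in ZSWIM8 KO, 33.6 CPM. miR-493-5p followed with 15.3, 14.3, 20.5 and 27.7 CPM in that order of groups. miR-381-3p had 15.9, 9.37, 16.3 and 20.1 CPM. These 3 strands lay close together in sgNT, within 15.3 to 16.5 CPM, and no test of the order within a group was made. miR-370-3p came next with 9.60, 8.06, 11.5 and 19.7 CPM. miR-493-3p, from the other arm of the hairpin of miR-493-5p, had 5.43, 5.24, 9.10 and 15.8 CPM. The first strand of the array, miR-379-5p, had 3.26, 4.44, 8.16 and 9.70 CPM. The exception was miR-543, at 1.49, 3.05 and 2.96 CPM in sgNT, sgCYRANO and WT and at 24.7 CPM after ZSWIM8 loss, where it ranked among the highest members.

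**Figure D1:**
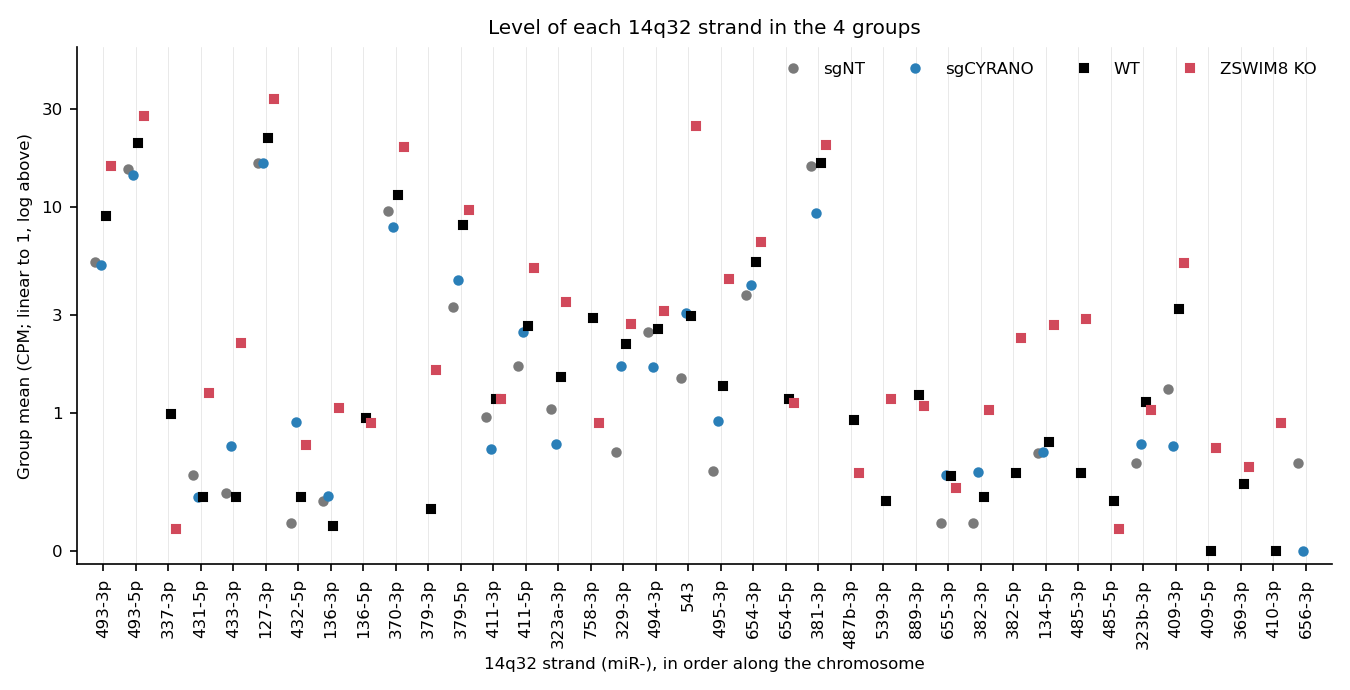
Group mean in CPM of each 14q32 strand (y axis, linear up to 1 and logarithmic above) in the 4 groups, with strands in order along the chromosome on the x axis and no error bars because the deposited tables give none per group. Most strands lie under 10 CPM, and miR-543 stands at 24.7 CPM in ZSWIM8 KO against 2.96 CPM in WT.

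Levels of the controls can be set side by side only with care, since the tables were scaled separately. Among the 23 strands measured in both comparisons, 20 had a higher mean in WT than in sgNT, with sums of 114 and 83.3 CPM. This difference was not tested.

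Before the comparison with WT, 1 library must be set apart. Reads per library could be worked out for every strand at a group mean of 3.33 CPM or less, which was 25 of 37 strands in ZSWIM8 KO, 30 of 37 in WT, 18 of 24 in sgNT and 17 of 24 in sgCYRANO. In ZSWIM8 KO these strands had 132 reads in the smallest library and 87 in the other 2 together. As levels, this was 63.1 CPM against 17.5 CPM, a ratio of 3.61. The smallest library thus held 60.3% of these reads (95% interval 53.5% to 66.8%, exact Clopper-Pearson) while it held 29.6% of the group's total depth.

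Summed over other microRNAs of low level, the smallest library held a share near its share of the depth. The 426 other microRNAs resolved in ZSWIM8 KO had 925 reads in the smallest library and 2247 in the other 2, a share of 29.2% (95% interval 27.6% to 30.8%). Single microRNAs among them differed: those of the chromosome 19 cluster had 0 reads in the smallest library. In the remaining groups the sums of 14q32 strands lay closer together. They stood at 35.1, 33.8 and 29.04 CPM in the largest, middle and smallest WT library. The sgNT libraries had 14.8, 18.9 and 18.8 CPM in that order, and the sgCYRANO libraries 15.7, 18.05 and 17.98 CPM.

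**Figure D2:**
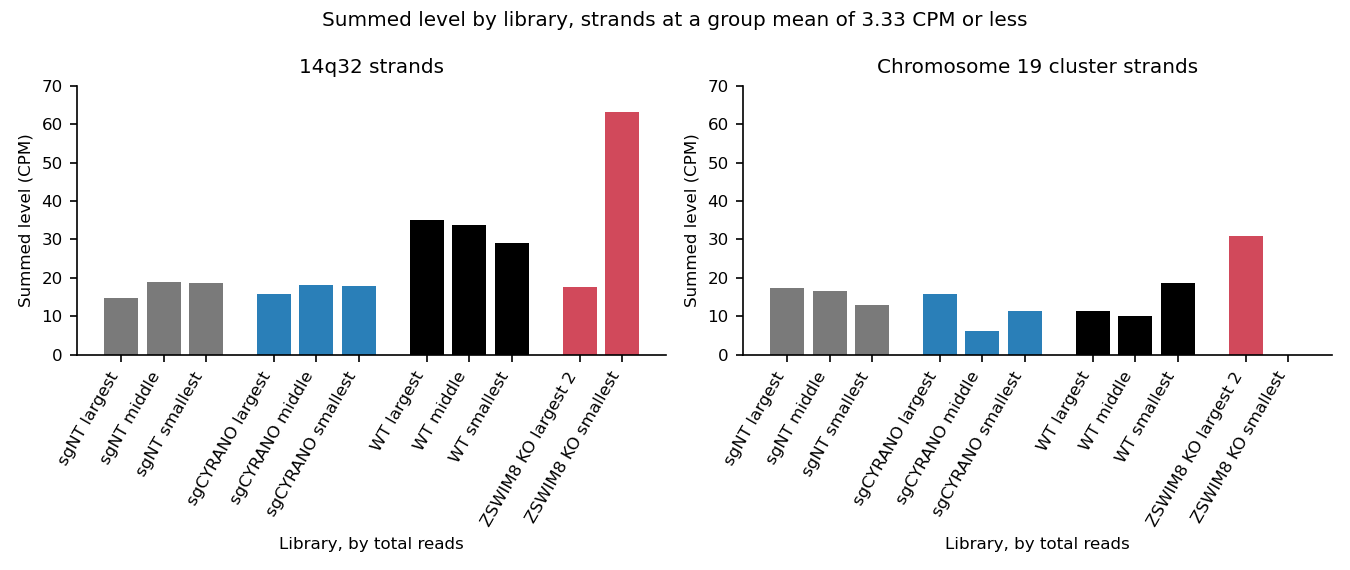
Summed level in CPM (y axis) of strands at a group mean of 3.33 CPM or less in each library (x axis, by group and total reads), for 14q32 strands on the left and strands of the chromosome 19 cluster on the right. The strands summed differ between groups, and the largest and middle ZSWIM8 KO libraries are pooled into 1 bar. The smallest ZSWIM8 KO library stands at 63.1 CPM for 14q32 and at 0 for chromosome 19.

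The excess was seen in most of the strands with enough reads to look at singly. Among the 20 strands with 5 or more reads in ZSWIM8 KO, 19 had a higher level in the smallest library than in the other 2 together, where 53.4% of all 277 microRNAs with as many resolved reads did. In 17 of the 20 the smallest library held 50% or more of the reads, against 23.5% of all such microRNAs. The share per strand ranged from 25% to 87.5%, with a median of 58.6%. miR-329-3p, which in neurons is induced together with miR-134, had 12 reads in the smallest library and 6 in the other 2. miR-485-3p had 12 and 7 reads, miR-494-3p 12 and 9, and miR-134-5p 10 and 8. miR-431-5p, on the strand opposite RTL1, had 7 reads and 1 read. The exception among the 20 was miR-654-5p, with 2 reads in the smallest library and 6 in the other 2.

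Both ends of the locus showed it. The 6 resolved strands of the upstream group had 29 reads in the smallest ZSWIM8 KO library and 13 in the other 2, a share of 69.0% (95% interval 52.9% to 82.4%). The 19 of the downstream array had 103 and 74 reads, a share of 58.2% (95% interval 50.6% to 65.5%). The intervals of both parts overlap, and the difference between these shares was not tested.

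**Figure D3:**
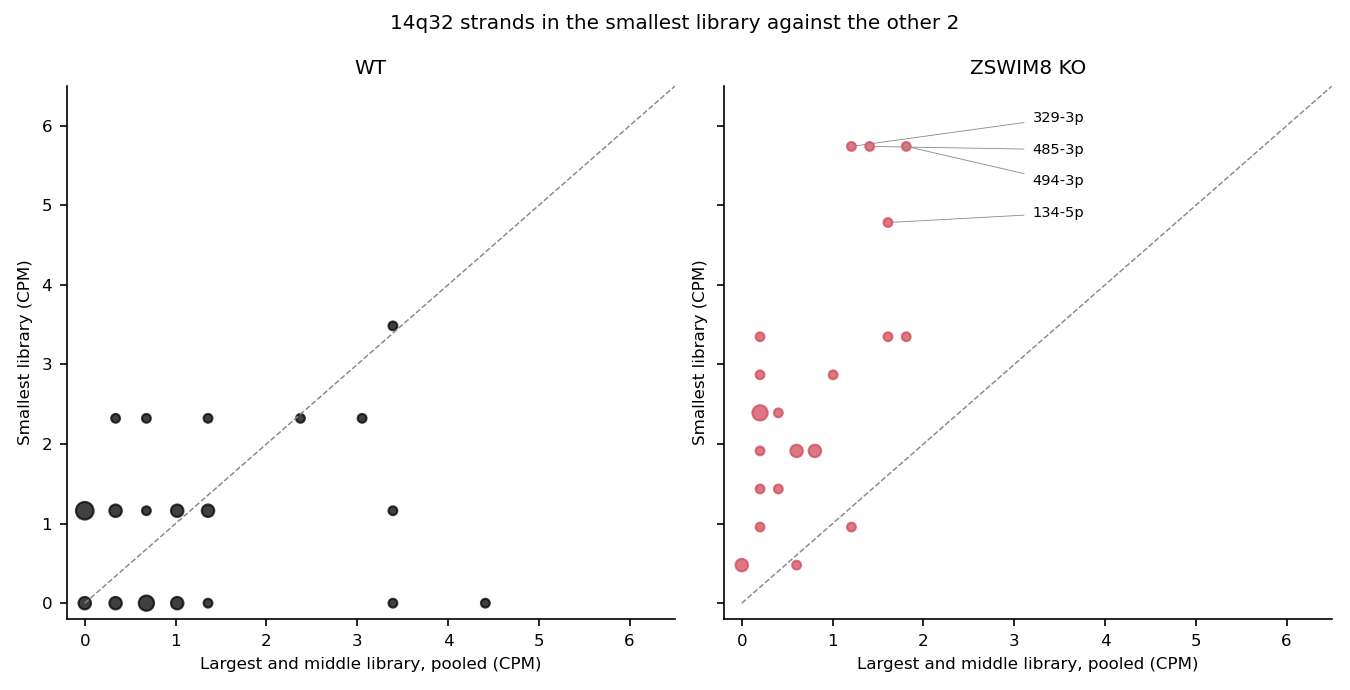
Level in CPM of each resolved 14q32 strand in the smallest library (y axis) against the largest and middle library pooled (x axis), for WT on the left and ZSWIM8 KO on the right, with larger points where several strands coincide and the dashed line marking equal levels. In ZSWIM8 KO most points lie above the line, led by miR-329-3p, miR-485-3p and miR-494-3p with 12 reads each in the smallest library.

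The other imprinted microRNA array of the human genome, on chromosome 19, went the other way in the same library. Its 17 resolved strands had 0 reads in the smallest ZSWIM8 KO library, which allows up to 1.44 CPM, and a summed level of 31.0 CPM in the other 2. In the authors' deposited table the median log2 fold change of its strands in ZSWIM8 KO was 1.36, with 0 of 28 strands past an adjusted p of 0.05.

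The ZSWIM8 comparison asked which microRNAs depend on ZSWIM8. In the authors' deposited table (edgeR quasi-likelihood test) 0 of 37 strands of 14q32 passed an adjusted p of 0.05, where 9.91% of all 868 microRNAs did. At an unadjusted p under 0.05 there were 3 higher strands, against 11.5% of all microRNAs, and 0 lower ones, against 8.29%. Calls were fewer at the levels of the members. Of the 620 microRNAs in the abundance range of the 14q32 strands, 19 passed the adjusted limit. At the unadjusted limit 28 of these 620 were higher and 25 lower. The cluster as a group had higher values in ZSWIM8 KO all the same, in means that include the smallest library. Log2 fold changes were above 0 for 27 of 37 strands, against 54.1% of all microRNAs, and their median was 0.71 against 0.08 over all. Of the 37 strands 14 had a WT mean at or under what 3 counts give. Some of these may have a row only through their ZSWIM8 KO reads, which favours values above 0. The median was 0.43 with the 2 strands at 0 in WT set to the bound that 3 counts allow. Summed over strands, the level in ZSWIM8 KO was higher by 0.74 on the log2 scale.

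For the strands that could be split by library, the pooled ratio to WT differed with and without the smallest ZSWIM8 KO library. These strands were kept for a mean of 3.33 CPM or less in both groups, so strands with high levels in ZSWIM8 KO, such as miR-543 and miR-495-3p, are not among them, and the sign and size of each ratio to WT depend in part on that limit. In bulk RNA, more cells with a strand and more of it per cell cannot be told apart. For the 25 strands resolved in both groups, all 3 ZSWIM8 KO libraries together had 219 reads (31.0 CPM) against 81 reads (21.3 CPM) in WT, a log2 ratio of 0.54 ± 0.19 (counting error). Without the smallest ZSWIM8 KO library the ratio was -0.28 ± 0.22, and with that library alone 1.57 ± 0.20. Of the 25 strands 16 were higher than in WT with all libraries, against 47.6% of all 424 microRNAs resolved in both groups, and 11 without the smallest, against 45.5%. Over all 424 the log2 ratio was 0.03 with and -0.02 without it. Leaving out a WT library gave 0.51 to 0.60.

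The 12 strands above 3.33 CPM in ZSWIM8 KO, which held most of the cluster's level, could not be split by library. Their summed level was 176 CPM in ZSWIM8 KO against 104 CPM in WT. All 189 microRNAs in the same range of levels summed to 2183 CPM against 1741 CPM. Both sets were picked by their level in ZSWIM8 KO, which favours values above 0 and higher sums there. For that reason no count of directions is given for the 12 strands. A wide spread over libraries can show as a large error implied by the authors' F statistic. Among these 12 strands 3 had an error over 1.5 times the median of the 40 microRNAs nearest in abundance, where 7.41% of the 189 microRNAs in the same range of levels did. The ratio was 3.22 for miR-543, 2.11 for miR-127-3p and 1.80 for miR-370-3p. In sgCYRANO against sgNT the highest ratio of any 14q32 strand was 1.04.

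**Figure D4:**
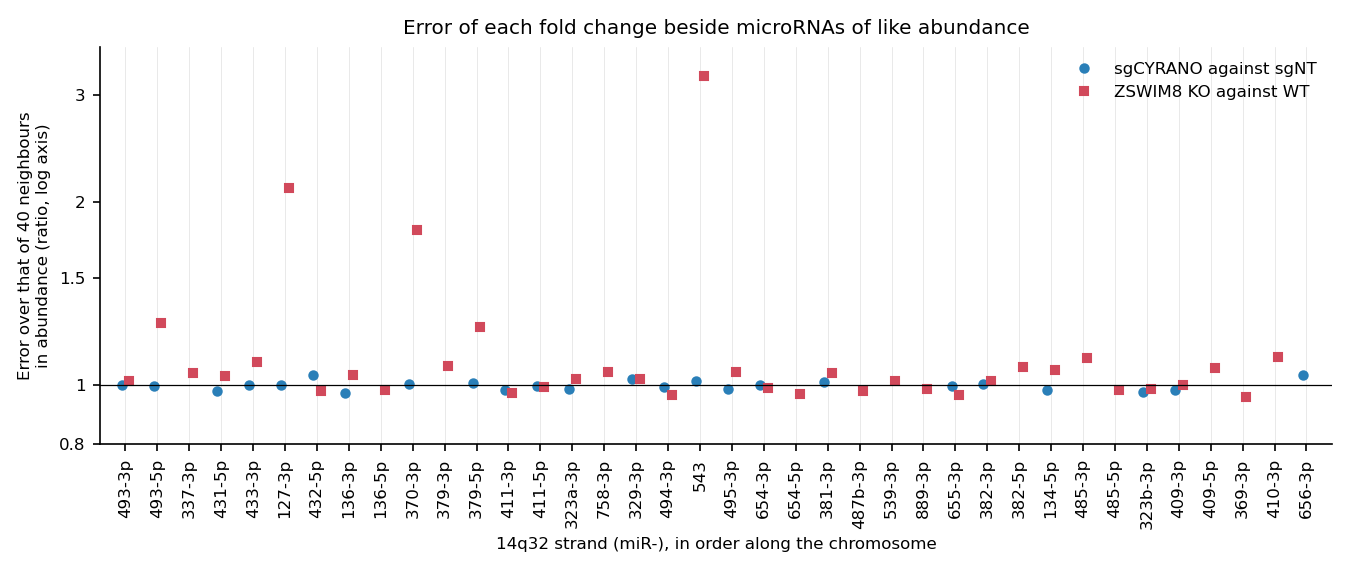
Error of each 14q32 strand's fold change, from the deposited F statistic, divided by the median error of the 40 microRNAs nearest in abundance (y axis, log scale), in order along the chromosome, for both comparisons. miR-543 at 3.22, miR-127-3p at 2.11 and miR-370-3p at 1.80 stand out in ZSWIM8 KO against WT, and no strand exceeds 1.04 in sgCYRANO against sgNT.

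The strand of lowest p in ZSWIM8 KO was miR-495-3p, with 1.36 CPM in WT (2, 2 and 1 reads in the largest, middle and smallest library) and 4.51 CPM in ZSWIM8 KO. Its log2 fold change in the authors' deposited table was 1.64 ± 0.71 (p = 0.0207, adjusted p = 0.135, edgeR). miR-485-3p had 1, 0 and 1 reads in WT, and in ZSWIM8 KO 12 in the smallest library and 7 in the other 2. Its pooled reads gave a ratio of 5.12 (95% counting interval 1.24 to 45.4), and the authors' deposited table an adjusted p of 0.155 (edgeR). miR-433-3p had 1 read in WT, in the smallest library, and 15 in ZSWIM8 KO, of which 7 were in the smallest library. That is a ratio of 8.09 (95% counting interval 1.24 to 341), and the authors' deposited table has an adjusted p of 0.221 (edgeR). Without the smallest ZSWIM8 KO library the level of miR-485-3p was 1.41 CPM against 0.567 CPM in WT, and that of miR-433-3p was 1.61 CPM against 0.387 CPM, while miR-495-3p could not be split. These were the 3 strands with an unadjusted p under 0.05, and in WT none had more than 2 reads in any library.

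Further strands with higher values in ZSWIM8 KO had unadjusted p-values over 0.05. For miR-493-3p the authors' deposited table lists 0.79 ± 0.40 (9.10 to 15.8 CPM, adjusted p = 0.255, edgeR). miR-382-5p, with 2 reads in WT and 16 in ZSWIM8 KO, had a ratio of 4.32 (95% counting interval 1.01 to 38.7). miR-543 had 8, 5 and 0 reads in the WT libraries and a group mean of 24.7 CPM in ZSWIM8 KO. Its log2 fold change in the authors' deposited table was 3.01 ± 1.63, with an adjusted p of 0.297 (edgeR). Its 95% interval, -0.19 to 6.21 on the log2 scale, held 0. miR-410-3p, at the far end of the array, had 0 reads in WT and 6 in ZSWIM8 KO, 5 of them in the smallest library. Its mean was 1.18 times the limit of 3 counts in WT, a ratio that leaves out the counting error of the 6 reads. The adjusted p in the authors' deposited table was 0.310 (edgeR). The 95% interval of its log2 fold change, -0.24 to 6.40, held 0. Without the smallest library its level was 0.201 CPM, under the 0.788 CPM that 0 reads in WT allow, so no fold is given there. miR-409-5p had 0 reads in WT and 5 in ZSWIM8 KO, which is within the limit that 0 reads in WT allow.

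The remaining strands at 10 CPM or more had adjusted p-values over 0.05 too. In the authors' deposited table miR-127-3p had 0.63 ± 0.73, miR-493-5p 0.43 ± 0.44, miR-370-3p 0.77 ± 0.73 and miR-381-3p 0.30 ± 0.38 on the log2 scale.

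A few strands had lower values in ZSWIM8 KO. miR-758-3p had 5, 4 and 2 reads in the WT libraries, and in ZSWIM8 KO 5 in the smallest library and 1 in the other 2. The authors' deposited table gave -1.51 ± 0.85 (adjusted p = 0.323, edgeR). It lies between MIR323A and MIR329-1, and shares its last 12 bases with miR-411-3p. miR-337-3p had 3 reads in WT and 1 in ZSWIM8 KO. miR-889-3p went from 1.23 to 1.09 CPM and miR-654-5p from 1.18 to 1.12 CPM, both strands without a row in the other table. In all 10 of 37 strands were below 0.

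**Figure D5:**
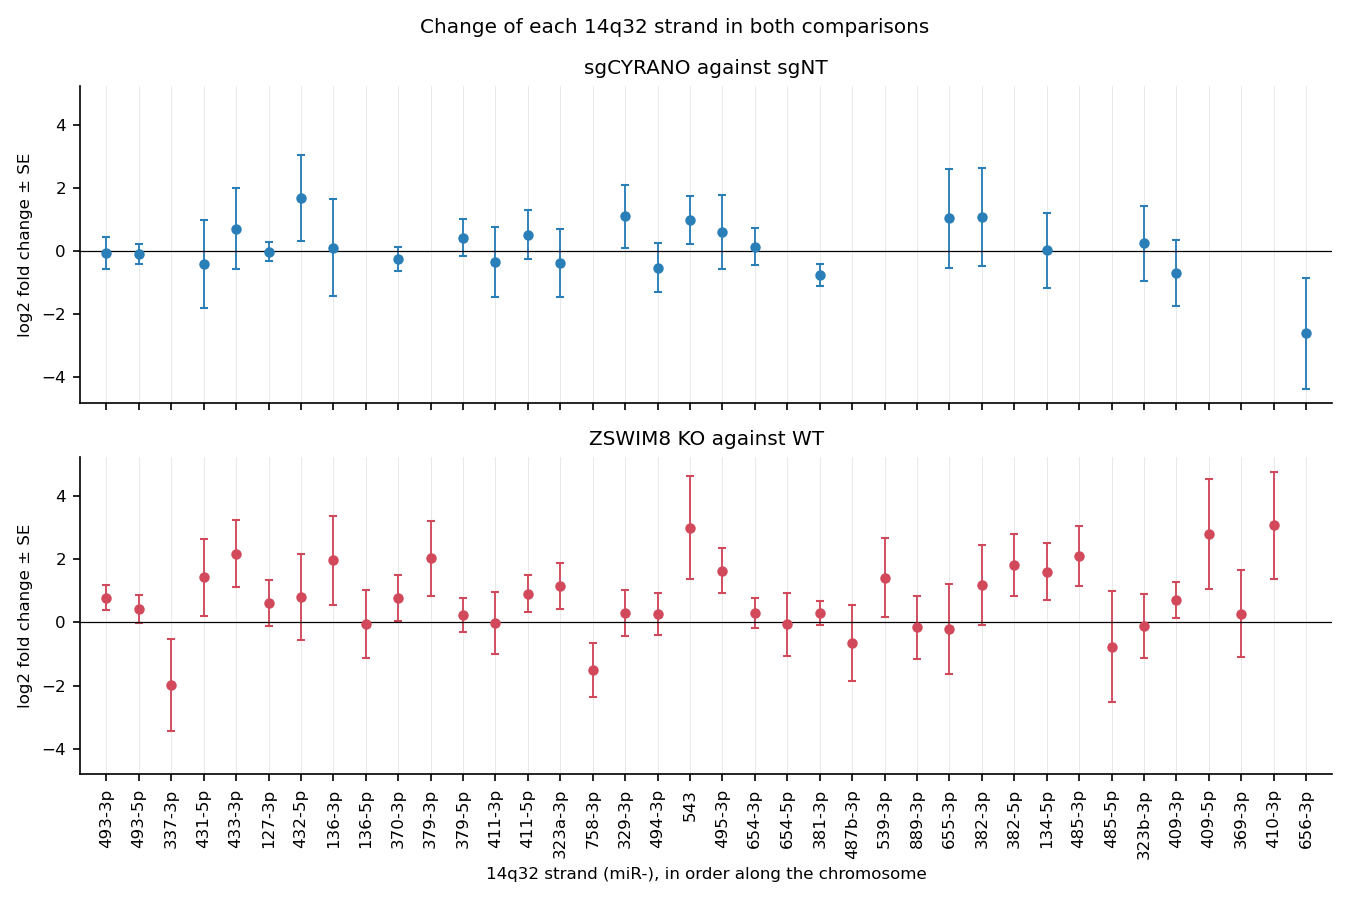
Log2 fold change with the standard error implied by the deposited p (y axis) for each 14q32 strand in order along the chromosome (x axis), for sgCYRANO against sgNT above and ZSWIM8 KO against WT below. In the lower panel 27 of 37 strands lie above 0, and none of the 37 passed an adjusted p of 0.05.

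By position, the upstream group had a median log2 fold change of 0.78 over 10 strands (8 above 0) and the downstream array 0.31 over 27 strands (19 above 0) in ZSWIM8 KO. The upstream strands summed to 66.1 CPM in WT cells and 103 CPM after ZSWIM8 loss and the downstream strands to 59.3 and 106 CPM, sums that no test was run on. The miR-154 family, taken by microRNA number, had 16 strands with a median of 0.51. Of these 11 were above 0, against 54.1% of all microRNAs, with the same limit from strands with few WT reads. This list takes in strands of either arm, so its mature sequences are not all alike. Of the pair with the seed AUGUAAC, miR-379-3p had 11 reads in ZSWIM8 KO against 1 in WT and miR-411-3p had 8 against 4, at 1.17 and 1.18 CPM. Their lead strands miR-379-5p and miR-411-5p are listed with 0.25 ± 0.54 and 0.91 ± 0.59 on the log2 scale in the authors' deposited table. No member of the miR-376 family, 3 numbers on the list, had a row in the tables used here.

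The CYRANO comparison asked which microRNAs respond when this decay-inducing transcript is targeted. In the authors' deposited table (edgeR) 0 of 24 strands of 14q32 passed an adjusted p of 0.05, where 0.119% of all 837 microRNAs did. Of the 535 microRNAs in the abundance range of the 14q32 strands, 0 passed it. At an unadjusted p under 0.05, 9 of these 535 were higher and 6 lower. The cluster lay close to 0 as a whole. Its median log2 fold change was 0.07 against 0.01 over all microRNAs, 13 strands of 24 were above 0 (against 51.4% of all microRNAs) and 11 below, and the summed level differed by -0.08 on the log2 scale. The upstream group had a median of -0.03 over 8 strands and the downstream array one of 0.20 over 16. The miR-154 family, taken by number, had a median of -0.45 over 8 strands, of which 3 were above 0.

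The lowest p belonged to miR-381-3p, at 15.9 CPM in sgNT and 9.37 CPM in sgCYRANO. The authors' deposited table gave -0.76 ± 0.33 (p = 0.0237, adjusted p = 0.801, edgeR). It was the 1 strand with an unadjusted p under 0.05 on the lower side, where 2.99% of all microRNAs were, and 0 were on the higher side, where 2.87% were. Its seed, AUACAAG, is shared with no other member. miR-656-3p, the last strand of the locus and the 1 member without a row in the ZSWIM8 table, had 0, 1 and 2 reads in the sgNT libraries and 0 in each sgCYRANO library. miR-543 had 3, 2 and 3 reads in sgNT and 5, 4 and 7 in sgCYRANO. Its change in the authors' deposited table was 0.98 ± 0.76 (adjusted p = 0.980, edgeR). miR-432-5p had 1 read in sgNT and 5 in sgCYRANO, a ratio of 5.19 (95% counting interval 0.581 to 245). miR-329-3p had 2, 0 and 2 reads in sgNT and 4, 2 and 3 in sgCYRANO, and the adjusted p listed in the authors' deposited table was 0.980 (edgeR).

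The abundant strands other than miR-381-3p had values within their errors of 0 in sgCYRANO. The authors' deposited table gave -0.01 ± 0.29 for miR-127-3p, -0.09 ± 0.30 for miR-493-5p, -0.05 ± 0.50 for miR-493-3p and -0.25 ± 0.39 for miR-370-3p. For the 17 strands resolved in both groups, 91 reads in sgCYRANO stood against 76 in sgNT, a log2 ratio of 0.31 ± 0.22 (counting error). These strands were kept for a mean of 3.33 CPM or less in both groups. Over all 358 microRNAs resolved in both groups the log2 ratio was 0.03. Of the 17 strands 11 were higher in sgCYRANO, against 56.4% of the 358. The 7 strands above that limit in sgCYRANO summed to 61.9 CPM there and to 69.7 CPM in sgNT. With 1 library left out, the ratio of the 17 strands ran from 0.13 (largest sgNT library) to 0.43 (middle sgNT library). These settings share most of their libraries, so they are no separate support.

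Both arms of a hairpin were compared because they are cut from 1 transcript, so that a change of one arm alone stands apart from a change of the hairpin. In ZSWIM8 KO 0 of 8 hairpins with both arms measured differed between arms (normal test of the difference of fold changes, adjusted p under 0.05), where 3.72% of all 188 hairpins did. In sgCYRANO this was 0 of 2, and 0% of all 180. The lowest adjusted p of a 14q32 hairpin was 0.780. Both arms of MIR493 reached 10 CPM in ZSWIM8 KO, at 27.7 CPM for 5p and 15.8 CPM for 3p. Its arm difference, 5p minus 3p, was -0.36 ± 0.60 on the log2 scale in ZSWIM8 KO against WT and -0.04 ± 0.58 in sgCYRANO against sgNT. At low levels, MIR485 had -2.88 ± 1.99, with 1 read of its 5p strand in ZSWIM8 KO. No arm difference is given for MIR409, whose 5p strand had 0 reads in WT.

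The changes of the 23 strands in both tables were also set against each other, as these comparisons share no library. None of the 23 differed between comparisons past an adjusted p of 0.05 (normal test of the difference), where 6.64% of all 753 microRNAs did. The lowest adjusted p, 0.257, was that of miR-381-3p, with 0.30 in ZSWIM8 KO and -0.76 in sgCYRANO in the authors' deposited table, a difference of 1.06 ± 0.50. Of the 23 strands 20 had a log2 fold change above 0 in ZSWIM8 KO, against 54.1% of all 868 microRNAs in that comparison. In sgCYRANO 13 did, against 51.4% of all 837. Both backgrounds take in microRNAs with a row in 1 comparison only, so they are not like sets. Of the 14 strands with a row only in ZSWIM8 KO against WT, 7 were above 0. The difference between the counts of 20 and 13 was not tested.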

How the data were processed

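Small RNA of K562 cells was sequenced in 12 libraries, 3 per group. For tools, the submitters' processing notes list STAR, featureCounts, edgeR, FastQC 0.11.2 and bcl2fastq, and the build hg19, with no roles. The files are the authors' deposited tables of 2 edgeR comparisons. Per the file headers they give a log2 fold change, a mean log2 CPM, an F statistic (a score here), and unadjusted and adjusted p-values, as deposited. Counts had been foreseen as one possibility; the deposited tests were used.

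Group means were recovered by inverting both log2 columns (prior counts of the authors' edgeR fit: 2 and 0.125). Of the 423 to 459 sums per group of up to 10 CPM, 99.8% to 100% were within 0.1 of a whole thousandth of a CPM (largest distance 0.115), so the authors' test appears to have been given CPM rounded to 3 decimals. Library totals were fitted so that whole reads per library gave every group sum up to 5 CPM, and all 1277 sums above 0 were matched, 318 and 302 in the first comparison, 335 and 322 in the second. Reads per library were taken for sums up to 10 CPM where 1 solution fitted. The procedure was tested on simulated data, where it resolved 84.0% to 100% of the low sums per group, and the resolved reads were right. The simulation used the same prior counts, rounding and fitted library totals. It thus cannot show that the authors' values were made in that way. If the authors' test was given CPM, its counting error was set as if each library held 1000000 reads.

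Standard errors were implied by the deposited p, read as a normal deviate. The p-values rest on triplicates of each line, but need not measure a strand's own spread over them. The error from F had a median ratio of 1.03 to that of microRNAs of like abundance among the 14q32 strands in ZSWIM8 KO against WT. For most low strands the ± values thus lie near those of other microRNAs at their level. Arm differences and differences between comparisons used a normal test with Benjamini-Hochberg adjustment over all hairpins or microRNAs (Python 3.11.15, scipy 1.17.1). Strands named are those at 10 CPM, those of lowest p and those in 1 table at 1 CPM or more. Further strands were named for their reads per library after the values were seen. The members and lists were chosen with earlier results of these data known.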

Additional observations from a re-analysis of the deposited data

How the results depend on the processing

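Of 32 alternative values of the counts, medians and sums above, 31 kept their direction or moved by less than their error. No 14q32 strand was called in either comparison with fold changes centred on the median at 10 CPM, with microRNAs under 1 or 10 CPM left out, or with the deposited F read with 4 denominator degrees of freedom. The last 2 settings could hardly add a call. Fewer degrees of freedom give a larger p for the same F. Of the 6 strands at 10 CPM in ZSWIM8 KO against WT, 0 had an unadjusted p under 0.05 (edgeR), so no adjustment could call one. No hairpin was called for its arms with both arms at 10 CPM or with errors from F, and no strand between comparisons after centring or with errors from F. The limit of 10 CPM on both arms left little to call. Of the 14q32 hairpins only MIR493 met it in ZSWIM8 KO against WT, and none in sgCYRANO against sgNT. The median in ZSWIM8 KO was 0.70 at 10 CPM or more, 0.63 at 1 CPM or more (limits on the mean of both groups, which strands high in 1 group can pass through it) and 0.58 after centring, and that in sgCYRANO, within error of 0, was -0.09, -0.03 and 0.09. The value that moved was the pooled log2 ratio of ZSWIM8 KO to WT, 0.54 with all libraries. Over leave-one-out settings, added after the data were seen, it ran from -0.28 (without the smallest ZSWIM8 KO library) to 0.60 (without the largest WT library). The fall without the smallest ZSWIM8 KO library was fixed in direction, since that library was set apart for its excess of 14q32 reads. For sgCYRANO the range was 0.13 to 0.43. The largest and middle ZSWIM8 KO libraries could not be left out singly. No paired analysis was possible because the tables hold no values of numbered libraries. The replicate block, leaving out numbered replicates and DESeq2 were not run for the same reason.

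Depth limits the low strands: 14 of 37 had a WT mean at or under what 3 counts give, so their fold changes rest on few or no WT reads. Strands above 3.33 CPM could not be split by library.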
